A study of Mus musculus with 6 samples.

Results

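Wnt receptor genes were examined in satellite cells, the resident stem cells of muscle, from mice with wild-type PAX7 and from mice whose PAX7 lacks an acetylated lysine. The set holds 10 genes of the 54115 quantified: the co-receptors Lrp5 and Lrp6, the Frizzled receptors Fzd1, Fzd4, Fzd6 and Fzd8, the receptor-removing ligases Znrf3 and Rnf43, the R-spondin receptor Lgr4, and Axin2. The genes were chosen by symbol, and Lrp6 was selected on its higher level in Pax7KR libraries, so its genotype difference is given as a description with no test. All 10 passed the filter on low reads, under which 17152 genes were tested.

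Wnt proteins bind a Frizzled receptor and a co-receptor, LRP5 or LRP6, at the cell surface. When both are engaged, the cytoplasmic complex that degrades β-catenin is held at the membrane, and β-catenin accumulates and acts with TCF/LEF factors in the nucleus. ZNRF3 and RNF43 are membrane ubiquitin ligases that remove Frizzled receptors from the surface, and R-spondins acting through LGR4 and its relatives clear these ligases. AXIN2 is a scaffold of the degrading complex and a widely used target gene of the pathway. In skeletal muscle, Wnt signals are known to act on satellite cells during regeneration.

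RNA-sequencing was performed on 3 Pax7WT and 3 Pax7KR samples, all on the C57BL/6J strain. Pax7KR mice are homozygous for a germline substitution of arginine for an acetylated lysine of PAX7, made by CRISPR-Cas9 in zygotes, so that every cell that expresses Pax7 carries it. Pax7WT mice were wild-type littermates, and the study's methods give an age of 6 to 8 weeks. Cells were sorted from hindlimb muscle that had not been injured, as positive for α7-INTEGRIN and CD34 and negative for CD31, CD11b, SCA-1 and CD45, and 15 ng of RNA entered each library. The labels number the replicates but do not tie them to mice, so p-values measure the spread between these libraries. In bulk RNA, fewer cells of a type and less RNA per cell cannot be told apart.

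Depth ran from 17822367 to 27908054 estimated read pairs per library, and all 12 satellite cell markers, Pax7 among them, passed the filter, with a summed level of 8524 to 9045 CPM in Pax7WT and 8764 to 8989 CPM in Pax7KR. CPM is a read count scaled to the size of its library. Endothelial markers summed to 322 to 399 CPM in Pax7WT and 350 to 458 CPM in Pax7KR, and 13 of 14 were nominally higher in Pax7KR. Fibro-adipogenic progenitor markers summed to 2419 to 2509 and 2520 to 2593 CPM, with 3 of 8 nominally higher and 5 lower, and Col3a1 and Gsn made up most of that sum. Erythroid markers summed to 188 to 369 and 324 to 547 CPM, and all 8 smooth muscle and pericyte markers were nominally lower in Pax7KR. None of these markers passed the test. Pax7KR replicate 2 stood apart in sex-linked genes, whose summed level was 132 CPM there and 300 to 358 CPM in the other libraries. The Y-linked Ddx3y, Uty, Kdm5d and Eif2s3y were each lowest there. Xist was 0.88 CPM there and 0.437 to 2.29 CPM in the other libraries. Values without this library are given for several of the 10 genes. Sex is not stated in the labels.

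Per length, the co-receptor Lrp6 and the receptor Fzd4 were the most abundant of the set in both genotypes. Levels between genes are given in TPM, which is scaled to transcript length as well as to depth. Over all 6 libraries, Lrp6 averaged 107 TPM ± 17.3 (SD), Fzd4 95.9 ± 18.9, Lrp5 38.6 ± 2.18, Lgr4 26.9 ± 1.95 and Znrf3 14.3 ± 1.49 TPM. These were followed by Fzd1 at 13.1 ± 1.02, Fzd8 at 11.4 ± 4.10, Axin2 at 4.57 ± 1.08, Fzd6 at 1.47 ± 0.582 and Rnf43 at 0.372 ± 0.257 TPM. Neighbours in this order were compared within libraries by an exact paired permutation test (two-sided) of log2(TPM + 0.01), adjusted over 9 pairs. The order itself was taken from the means of the same libraries, so the p-values are no independent support for it. Lrp6 exceeded Fzd4 in 4 of 6 libraries. The Lrp6 mean and this pair contain the Pax7KR values that chose the gene, so no p is read for the pair. The pair still counts among the 9 of the adjustment, so the adjusted p-values of the others depend on it. Znrf3 exceeded Fzd1 in 5 of 6 libraries (adjusted exact p = 0.0804), and Fzd1 exceeded Fzd8 in 5 of 6 (adjusted exact p = 0.281), so these 3 pairs did not keep their order in every library. The other 6 neighbouring pairs kept their order in 6 of 6 libraries, with an exact p of 0.0312, the smallest that 6 libraries allow (adjusted p = 0.0469).

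**Figure D1:**
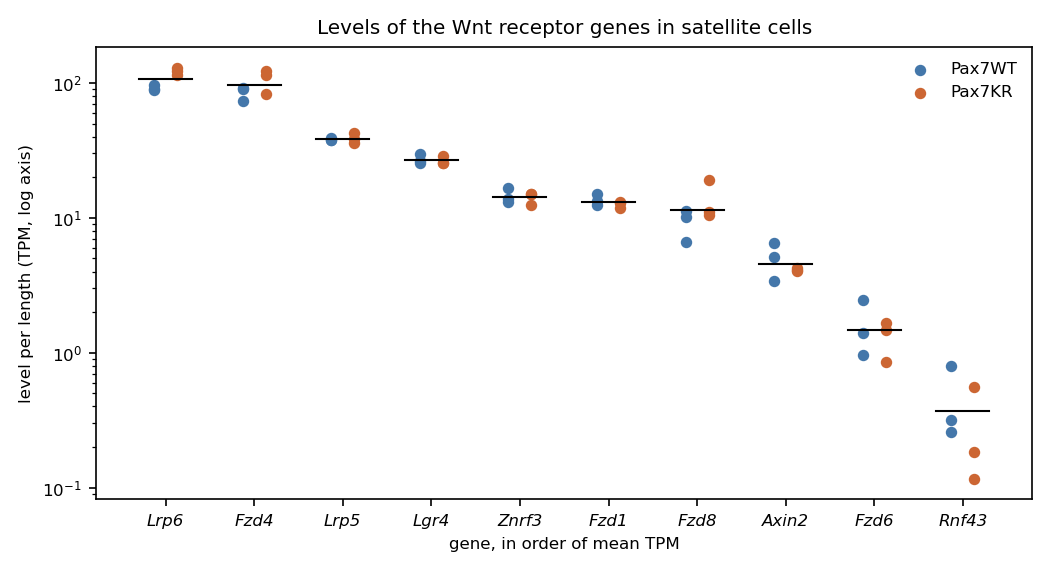
Level per length (TPM, logarithmic axis) of each of the 10 genes in order of mean TPM, with Pax7WT libraries in blue, Pax7KR libraries in orange and a line at the mean of all 6. Lrp6 and Fzd4, whose order differs between libraries, lie above the other 8 genes, and Rnf43 lies lowest at a mean of 0.372 TPM.

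Lrp6 was higher in every Pax7KR library than in any Pax7WT library. Lrp6 (ENSMUSG00000030201, GRCm38 chr6:134446476-134566965, minus strand) measured 423, 446 and 449 CPM in Pax7WT and 569, 584 and 538 CPM in Pax7KR. The groups did not overlap. Mean levels were 440 CPM ± 14 (SD) in Pax7WT and 564 CPM ± 23.4 in Pax7KR. The fitted log2 fold change (Pax7KR minus Pax7WT) was 0.36 (SE 0.06) and had a range of 0.33 to 0.39 when each library was left out in turn. These values chose the gene, and nothing is tested on them. Among all genes tested, 5.14% had every Pax7KR library above every Pax7WT library, and 5.19% had every one below. Per length, Lrp6 measured 88.6, 90.4 and 97.3 TPM in Pax7WT and 122, 130 and 114 TPM in Pax7KR.

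Most Lrp6 signal came from 1 transcript in both genotypes, a measure that did not enter the choice of genes. The protein-coding transcript of 9368 bases and 23 exons (ENSMUST00000032322.14) held 80.8%, 83.2% and 77.3% of the gene's TPM in Pax7WT and 84.1%, 81% and 81% in Pax7KR. The groups overlapped. The mean share was 1.58 percentage points higher in Pax7KR, a value that ran from 0.0217 without Pax7WT replicate 3 to 2.95 without Pax7WT replicate 2, was 0.563 without Pax7KR replicate 1 and 2.08 without Pax7KR replicate 2, and was 0.303 as a share of reads. With 3 libraries against 3, an exact permutation test cannot go below p = 0.1, so shares are given as values. No other transcript of Lrp6 reached 10% of the gene's TPM over the 6 libraries.

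Lrp5, which encodes the other co-receptor of the pair, overlapped between the genotypes. Lrp5 (ENSMUSG00000024913, chr19:3584828-3686564, minus strand) measured 112, 117 and 111 CPM in Pax7WT and 100, 122 and 110 CPM in Pax7KR. The Pax7KR libraries held both the lowest and the highest value, and without Pax7KR replicate 2 they lay below every Pax7WT library, as 8.98% of all genes then did. The log2 fold change was -0.03 (SE 0.07, 95% interval -0.19 to 0.12), and its adjusted p was 0.998 by edgeR's quasi-likelihood test, adjusted by Benjamini-Hochberg over all 17152 genes with a cut-off of 0.1. Within libraries, Lrp6 exceeded Lrp5 by a TPM ratio of 2.35, 2.31 and 2.56 in Pax7WT and 3.4, 3.06 and 2.97 in Pax7KR, and this ratio contains the Lrp6 values that chose the gene. The main Lrp5 transcript (ENSMUST00000025856.16) held 84.3% to 91.1% of TPM in Pax7WT and 84.1% to 89.3% in Pax7KR.

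**Figure D2:**
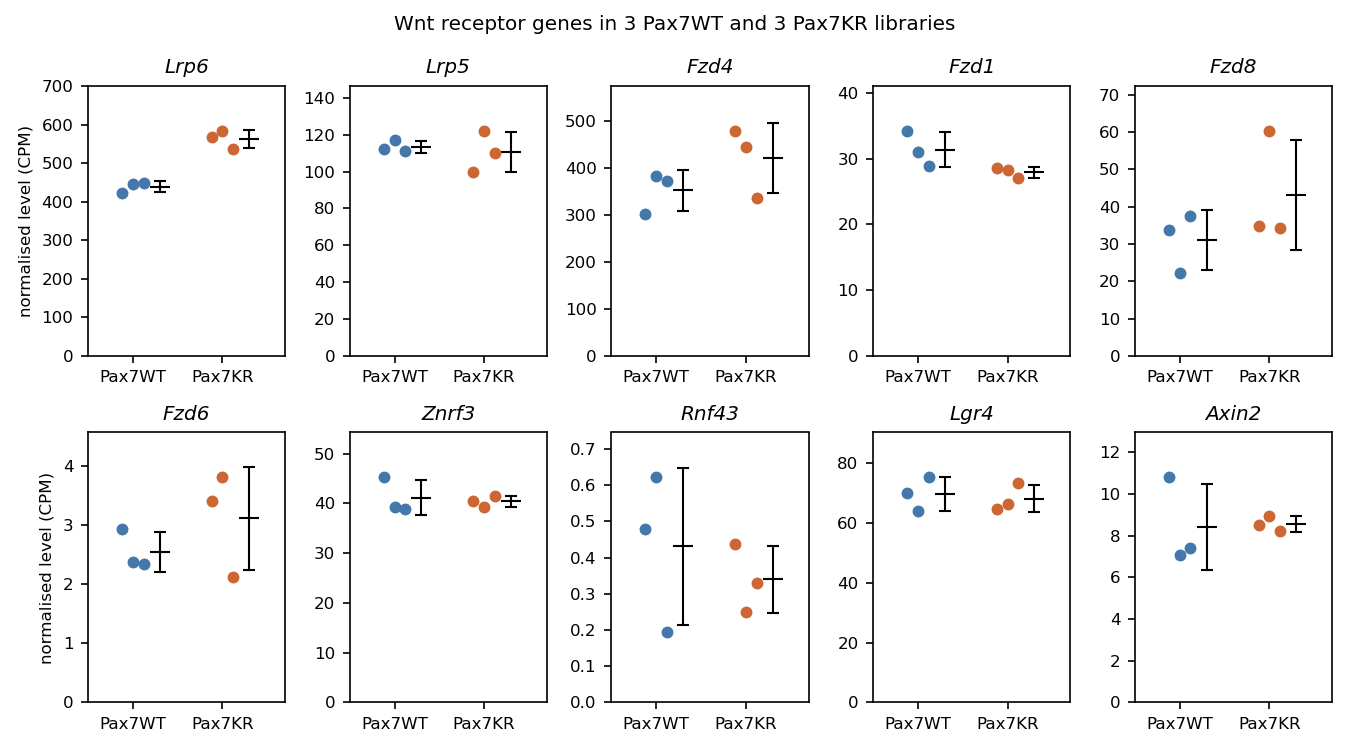
Normalised level (CPM, axis from 0) of each gene in the 3 Pax7WT (blue) and 3 Pax7KR (orange) libraries, in replicate order, with the mean and SD of each group in black. Lrp6 separates upwards, with 538 to 584 CPM in Pax7KR against 423 to 449 CPM in Pax7WT, Fzd1 separates downwards, and the groups overlap for the other 8 genes.

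Of the 9 genes other than Lrp6, 0 passed edgeR's test, as did 0% of all genes tested. Of the 9, 0 had an unadjusted p under 0.05 and 0 were called by DESeq2, while over all genes 803 (4.68%) had an unadjusted p under 0.05 and DESeq2 called 30. Nominally, 4 of the 9 were higher and 5 lower in Pax7KR, and 49% of all genes were higher. Their median log2 fold change was -0.03, against -0.0037 over all genes. Libraries of the genotypes overlapped for 8 of the 10 genes, with Lrp6, chosen for its higher level, the gene above and Fzd1 the gene below. Over all genes tested, 5.14% had every Pax7KR library above and 5.19% every one below.

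**Figure D3:**
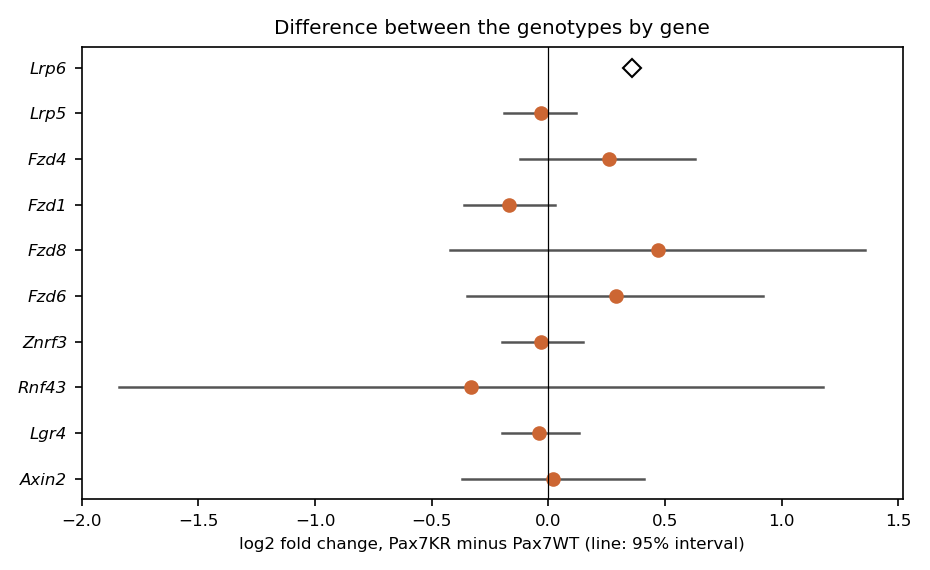
Log2 fold change (Pax7KR minus Pax7WT) by gene, with the 95% interval as a line. Lrp6, which was chosen for this value, is an open diamond without an interval, and the intervals of the other 9 genes include 0.

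Fzd4 was the most abundant Frizzled, and it varied between libraries of the same genotype. FZD4 is a receptor for Wnt ligands and for norrin, and is known for its role in vessels. Fzd4 (ENSMUSG00000049791, chr7:89404355-89413134, plus strand) measured 302, 382 and 371 CPM in Pax7WT and 478, 445 and 336 CPM in Pax7KR. Pax7KR replicates 1 and 2 lay above every Pax7WT library, and replicate 3 lay within the Pax7WT range. The log2 fold change was 0.26 (SE 0.15, 95% interval -0.12 to 0.63, adjusted p = 0.992 by edgeR). It was 0.39 at the highest and 0.15 at the lowest when each library was left out in turn, and 0.21 without Pax7KR replicate 2. The summed endothelial markers were 345, 322 and 399 CPM in Pax7WT and 407, 458 and 350 CPM in Pax7KR, so Pax7KR replicates 1 and 2 were the highest libraries and replicate 3 the lowest of the Pax7KR libraries in both measures. Pax7WT replicate 2 had the highest Fzd4 level of the Pax7WT libraries and the lowest endothelial sum of all 6. The largest term of that sum was Tek, at 231, 184 and 207 CPM in Pax7WT and 221, 221 and 216 CPM in Pax7KR. Tek too was lowest in Pax7WT replicate 2. Pecam1, which encodes the sorted-out surface protein CD31, measured 20.7, 22 and 42.2 CPM in Pax7WT and 34.5, 50.4 and 26.9 CPM in Pax7KR. Pecam1 was lowest in Pax7WT replicate 1, so the order of the libraries depends on the marker. The part of endothelial markers in the Fzd4 values was not tested.

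Fzd1 was the gene of the set with every Pax7KR library below every Pax7WT library, a separation found for 5.19% of all genes tested. Fzd1 (ENSMUSG00000044674, chr5:4753839-4758035, minus strand) measured 34.2, 31 and 28.9 CPM in Pax7WT and 28.6, 28.2 and 27 CPM in Pax7KR. Pax7WT replicate 3 lay close to the Pax7KR libraries. Its log2 fold change was -0.17 (SE 0.09, 95% interval -0.36 to 0.03), with an unadjusted p of 0.0896, the smallest of the 9 genes, and an adjusted p of 0.992 by edgeR. Without Pax7WT replicate 1 it was -0.10. Fzd1 shared 1.61% of its 31-base words with other genes, chiefly Fzd2, the highest such share in the set.

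Fzd8 spread more between libraries than Fzd4 or Fzd1, with a coefficient of variation of 33.7% over the 6 libraries against 17.1% and 8.62%. Fzd8 (ENSMUSG00000036904, chr18:9212163-9218136, plus strand) measured 33.7, 22.1 and 37.6 CPM in Pax7WT and 34.9, 60.3 and 34.4 CPM in Pax7KR. Pax7KR replicate 2 was the highest library, and the other Pax7KR libraries lay within the Pax7WT range. Pax7KR exceeded Pax7WT by a log2 fold change of 0.47 (SE 0.34, 95% interval -0.42 to 1.36, adjusted p = 0.995 by edgeR), and 0.15 without Pax7KR replicate 2.

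Fzd6 was near the lower end of the set. FZD6 is known for planar cell polarity. Fzd6 (ENSMUSG00000022297, chr15:39006034-39038188, plus strand) held 42 to 91 reads per library, and measured 2.94, 2.37 and 2.34 CPM in Pax7WT and 3.41, 3.81 and 2.13 CPM in Pax7KR. Pax7KR replicate 3 was the lowest of all libraries and replicates 1 and 2 were the highest. By the fit, the difference was 0.29 on the log2 scale (SE 0.30, 95% interval -0.35 to 0.92, adjusted p = 0.998 by edgeR). It was 0.12 without Pax7KR replicate 2 and -0.34 when the average transcript length of each library entered the fit. At this depth its transcript shares were not read.

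The promoters of Fzd4 and Fzd1, the most abundant Frizzled of the set and the one whose libraries separated downwards, are shown for how they differ in base composition. Each is the 250 bases before the transcript start in RefSeq (GRCm38.p6), 5′ to 3′ on the strand of the gene. Capitals mark GC boxes (GGGCGG or its complement CCGCCC) and CCAAT boxes (CCAAT or its complement ATTGG). The first lies at chr7:89404116-89404365 on the plus strand and the second at chr5:4758217-4758466 on the minus strand. The RefSeq starts differ from those of the gene coordinates given above. The Fzd4 window runs past the start at 89404355, and the Fzd1 window ends before it reaches the start at 4758035.
Fzd4: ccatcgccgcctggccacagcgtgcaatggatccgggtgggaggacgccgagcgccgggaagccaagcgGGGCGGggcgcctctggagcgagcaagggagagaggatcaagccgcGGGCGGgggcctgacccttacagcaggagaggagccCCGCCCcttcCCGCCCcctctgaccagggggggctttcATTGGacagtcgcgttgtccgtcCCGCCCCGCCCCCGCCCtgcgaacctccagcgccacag
Fzd1: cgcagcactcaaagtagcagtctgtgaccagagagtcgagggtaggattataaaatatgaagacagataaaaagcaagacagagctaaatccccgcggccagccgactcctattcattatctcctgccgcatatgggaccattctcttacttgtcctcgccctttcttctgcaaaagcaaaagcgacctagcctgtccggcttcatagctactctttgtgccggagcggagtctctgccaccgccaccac
The Fzd4 window was 72.8% G or C and held 7 GC boxes and 1 CCAAT box, some GC boxes lying directly next to each other. The Fzd1 window was 51.2% G or C and held neither. Over all 32851 promoter windows the median was 52.4% G or C, 32.7% held a GC box and 33.8% a CCAAT box, searched on both strands.

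Znrf3 was the more abundant of the paired ligase genes. Znrf3 (ENSMUSG00000041961, chr11:5276324-5444847, minus strand) measured 45.2, 39.3 and 38.9 CPM in Pax7WT and 40.5, 39.3 and 41.5 CPM in Pax7KR. All Pax7KR values lay within the Pax7WT range. Its log2 fold change was -0.03 (SE 0.08, 95% interval -0.20 to 0.15, adjusted p = 0.998 by edgeR), and -0.01 without Pax7KR replicate 2. Of its transcripts, the longest (6311 bases) held 37.3%, 52.1% and 45.7% of TPM in Pax7WT and 43.8%, 46.9% and 62.1% in Pax7KR. The next, of 4926 bases, held 32.9% to 43.9% over all libraries, and the groups overlapped for both.

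Rnf43, which encodes the ligase paired with ZNRF3, was barely detected. Rnf43 (ENSMUSG00000034177, chr11:87662722-87735539, plus strand) held 4 to 13 reads per library, and measured 0.478, 0.621 and 0.195 CPM in Pax7WT and 0.437, 0.251 and 0.331 CPM in Pax7KR. The groups overlapped, and the log2 fold change of -0.33 (SE 0.70, 95% interval -1.84 to 1.18, adjusted p = 0.998 by edgeR) spans both directions widely, so a difference was not detectable at this depth. The value ran from -0.68 without Pax7WT replicate 3 to -0.01 without Pax7WT replicate 2, was -0.16 without Pax7KR replicate 2, and was -0.81 when average transcript length entered the fit. Its span overlaps that of 1110028F11Rik on the same strand, and its transcripts share 0 of 6578 31-base words with other genes. In TPM, Znrf3 exceeded Rnf43 20.9-fold in the lowest library and 128-fold in the highest.

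Lgr4, which encodes an R-spondin receptor, lay between Lrp5 and Znrf3 in level per length. Lgr4 (ENSMUSG00000050199, chr2:109917647-110014257, plus strand) measured 69.8, 63.9 and 75.1 CPM in Pax7WT and 64.5, 66.4 and 73.1 CPM in Pax7KR. All Pax7KR values lay within the Pax7WT range, and the log2 fold change was -0.04 (SE 0.08, 95% interval -0.20 to 0.13, adjusted p = 0.998 by edgeR), and -0.02 without Pax7KR replicate 2. The Lgr4 transcript with 18 exons held 73.3% to 91% of TPM in Pax7WT and 86% to 95.3% in Pax7KR. Its promoter window in RefSeq held 2 CCAAT boxes.

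Axin2, the target gene and scaffold, was low, and its Pax7WT libraries spread more than its Pax7KR libraries. Axin2 (ENSMUSG00000000142, chr11:108920349-108950783, plus strand) measured 10.8, 7.06 and 7.41 CPM in Pax7WT and 8.53, 8.96 and 8.23 CPM in Pax7KR. Pax7WT replicate 1 was the highest library, and the Pax7KR libraries lay between it and the other Pax7WT libraries. The log2 fold change was 0.02 (SE 0.18, 95% interval -0.37 to 0.41, adjusted p = 0.998 by edgeR). It was 0.24 without Pax7WT replicate 1, -0.01 without Pax7KR replicate 2, and -0.33 when average transcript length entered the fit. A short transcript of 826 bases held 35.5%, 0% and 48.8% of TPM in Pax7WT and 7.04%, 5.57% and 5.04% in Pax7KR. These shares rest on few reads. The transcript held 21.3, 0 and 17.6 estimated reads in Pax7WT and 2.2, 1.9 and 1.48 in Pax7KR. The whole gene held 125 to 294 reads per library. As a share of reads, the transcript held 7.26%, 0% and 11.6% in Pax7WT and 1.13%, 0.887% and 0.852% in Pax7KR.

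The Axin2 promoter is shown because this gene is read as a target of TCF/LEF factors. It is the 250 bases before the RefSeq start (GRCm38.p6 chr11:108920099-108920348, plus strand), with GC boxes in capitals.
Axin2: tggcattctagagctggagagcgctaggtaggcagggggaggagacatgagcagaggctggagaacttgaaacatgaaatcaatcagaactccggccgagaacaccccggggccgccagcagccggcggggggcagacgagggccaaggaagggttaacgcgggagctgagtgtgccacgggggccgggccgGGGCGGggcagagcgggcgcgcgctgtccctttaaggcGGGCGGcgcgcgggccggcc
The window was 69.2% G or C and held 2 GC boxes. Of the 10 genes, 5 matched a RefSeq promoter entry by symbol: Fzd1, Fzd4, Rnf43, Lgr4 and Axin2. Entries for Lrp5, Lrp6, Fzd6, Fzd8 and Znrf3 were not matched. None of the windows of these 5 genes held the TCF/LEF words CTTTGAT or CTTTGAA, which 7.48% of all windows held, or the homeobox word TAATTA, which 4.84% held, on either strand. This says only that these letters are not in these windows.

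The genes whose pattern over the 6 libraries was most like that of Lrp6 were Aasdhppt, Gpr89 and Zfp653. Likeness was the root mean square difference of log2 CPM, each gene centred on its own mean, among 9518 genes with a mean of 10 CPM or more. The difference was 0.05 for Aasdhppt, 0.0549 for Gpr89 and 0.0587 for Zfp653, against a median of 0.211 over all genes compared. Aasdhppt measured 20.7, 21.2 and 22.2 CPM in Pax7WT and 25.9, 26.6 and 26.6 CPM in Pax7KR. Of the Wnt receptor genes compared, Fzd4 was nearest to Lrp6, at 0.16 and rank 1285, and Fzd8 was farthest, at 0.34. The pattern includes the genotype difference that chose Lrp6, so this is a description.

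**Figure D4:**
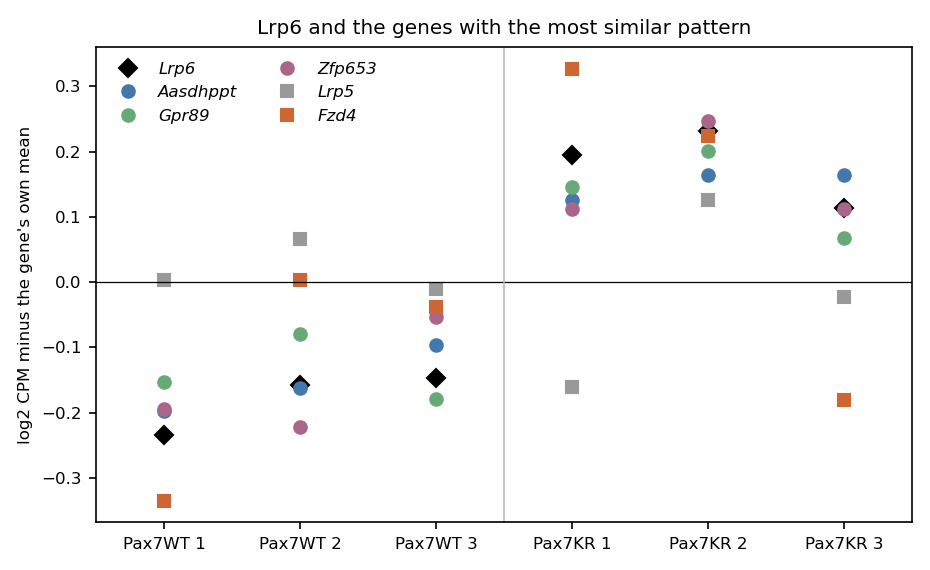
Log2 CPM minus each gene's own mean in the 6 libraries for Lrp6 (black diamonds), the 3 genes of most similar pattern (circles), and Lrp5 and Fzd4 (squares). Lrp6 and the 3 similar genes lie below 0 in all Pax7WT and above 0 in all Pax7KR libraries, while Fzd4 lies below 0 in Pax7KR replicate 3.

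Around these receptors, 109 distinct genes of the Wnt pathway were found, of which 86 passed the filter on low reads. Of the 85 other than Lrp6, 0 passed edgeR's test, 44 were nominally higher and 41 lower in Pax7KR, and the median log2 fold change was 0.004. An unadjusted p under 0.05 was found for 7 of the 85, against 4.68% of all genes, and DESeq2 called 0. Lgr5, 1 of these 7, passed the filter on low reads only through Pax7KR libraries. Its place in this count and in the count of separated genes below is therefore no support for a difference. Lists overlap with each other and with the 10 genes. The genotypes did not overlap for 7 of the 85, with Pax7KR above for Lgr5, Axin1 and Dkk2, and below for Fzd1, Dvl3, Vangl1 and Pygo1, against 5.14% of all genes above and 5.19% below.

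**Figure D5:**
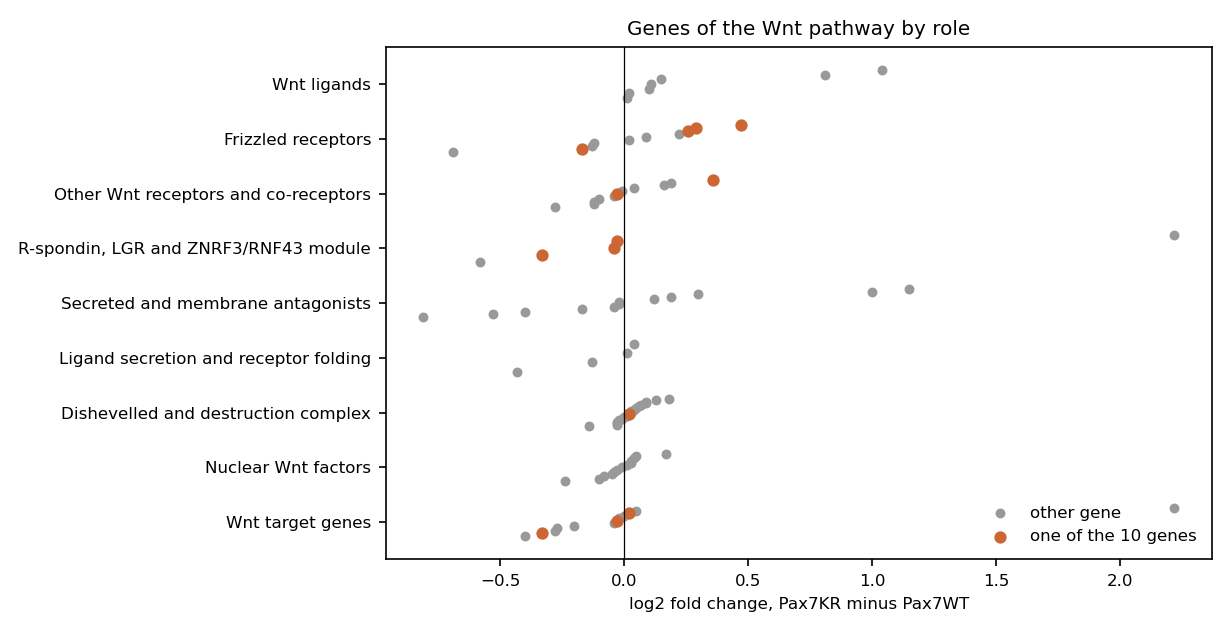
Log2 fold change (Pax7KR minus Pax7WT) of each tested Wnt pathway gene, 1 row of points per role, with the 10 genes described here in orange and others in grey. Points lie on both sides of 0 in each role except the Wnt ligands, where all 7 tested genes lie above, and the point at 2.22, drawn in both lists that hold it, is Lgr5.

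Few Wnt ligand genes were detected in these cells. Of 19, 16 averaged under 1 TPM, 5 had no read in any library, and 7 were tested. The highest were Wnt4 at 11.9 TPM ± 1.93 (SD over the 6 libraries), Wnt9a at 5.08 ± 0.899 and Wnt5b at 1.07 ± 0.364 TPM. All 7 were nominally higher in Pax7KR with a median log2 fold change of 0.11, and 0 had an unadjusted p under 0.05. Wnt4 itself had a log2 fold change of 0.01 (SE 0.18).

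All 10 Frizzled genes were tested, and 6 were nominally higher and 4 lower in Pax7KR. Their median difference was 0.06 on the log2 scale. Beyond the 4 described above, Fzd7 averaged 16.7 TPM ± 1.32, Fzd3 3.7 ± 0.267 and Fzd2 1.61 ± 0.387 TPM. FZD7 is known as a receptor for WNT7A in satellite cells. Fzd7 measured 45.9, 46.6 and 38.6 CPM in Pax7WT and 39.5, 41.8 and 38.3 CPM in Pax7KR. Its difference was -0.13 on the log2 scale (SE 0.09, adjusted p = 0.992 by edgeR). By mean TPM it lay between Fzd4 and Fzd1.

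Among the other receptors and co-receptors tested, 3 of 10 besides Lrp6 were nominally higher and 7 lower. Ryk averaged 91.4 TPM ± 4.87, Adgra2, which encodes a co-receptor for WNT7 ligands, 87.3 ± 6.48, and Ror1 54.9 ± 3.77 TPM, with log2 fold changes of 0.04, -0.04 and -0.10. Musk, chosen after its values were seen, differed by 0.19 on the log2 scale (SE 0.08, adjusted p = 0.992 by edgeR).

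In the R-spondin module, 7 of 9 genes averaged under 1 TPM, and Lgr4 and Znrf3 were the exceptions. Rspo1 averaged 0.461 TPM ± 0.496 and Rspo3 0.0496 ± 0.0483 TPM. Lgr5, a relative of Lgr4, held 1 to 12 reads per library, and measured 0.0735, 0.113 and 0.0487 CPM in Pax7WT and 0.525, 0.419 and 0.189 CPM in Pax7KR. Every Pax7KR value lay above every Pax7WT value, and the log2 fold change of 2.22 (SE 0.94) did not pass the test (adjusted p = 0.992 by edgeR). Lgr5 passed the filter on low reads only through Pax7KR libraries, so its separation, fold change and p are a description and no support for a difference.

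Of 12 antagonist genes tested, 5 were nominally higher and 7 lower. Kremen1, which encodes a receptor for DKK proteins that binds LRP6, averaged 114 TPM ± 9.88 and had a log2 fold change of 0.12 (SE 0.07). It measured 311, 285 and 290 CPM in Pax7WT and 315, 341 and 304 CPM in Pax7KR, with overlap between the groups. Sfrp4 averaged 8.63 ± 1.25 and Apcdd1 5.15 ± 0.588 TPM, both with a log2 fold change of -0.02, and Dkk1, Dkk4 and Sost had no read in any library. Dkk2, chosen after its values were seen and at 4 to 21 reads per library, differed by 1.15 on the log2 scale (SE 0.60, adjusted p = 0.992 by edgeR).

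Mesd, the chaperone that folds LRP5 and LRP6, averaged 101 TPM ± 14.4 and had a log2 fold change of 0.01 (SE 0.08). Wls, which carries Wnt proteins to the surface, averaged 49.5 ± 3.33 and Porcn, which acylates them, 17.9 ± 1.96 TPM, with log2 fold changes of 0.04 and -0.13. Vangl1, a planar polarity gene chosen after its values were seen, measured 12.3, 11.9 and 10.1 CPM in Pax7WT and 8.05, 8.42 and 8.94 CPM in Pax7KR. The groups did not overlap, with Pax7KR below, as for 5.19% of all genes tested. Its log2 fold change of -0.43 (SE 0.14) had an adjusted p of 0.992 by edgeR.

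All 19 genes of the dishevelled and destruction complex group were tested, 13 of them nominally higher and 6 lower. Their median difference was 0.03 on the log2 scale. Ctnnb1, which encodes β-catenin, averaged 408 TPM ± 26, and the kinases Csnk1a1 and Csnk1d 173 ± 7.53 and 156 ± 8.22 TPM. Their log2 fold changes were 0.01 (SE 0.06), 0.00 (SE 0.06) and -0.01 (SE 0.07). Among 13 nuclear factors tested, 6 were higher and 7 lower. Tle3, a co-repressor, averaged 161 ± 20.3, Ctbp1 156 ± 8.87 and Tle2 46.7 ± 4.32 TPM, and Lef1 held at most 4 reads in a library.

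Of 12 Wnt target genes tested, 4 were nominally higher and 8 lower in Pax7KR, with a median log2 fold change of -0.03. An unadjusted p under 0.05 by edgeR was found for 3, Myc, Ccnd1 and Lgr5, against 4.68% of all genes. Of these, Lgr5 passed the filter on low reads only through Pax7KR libraries, so its p is no support for a difference. Myc, a growth regulator, measured 118, 103 and 114 CPM in Pax7WT and 93.3, 93.3 and 104 CPM in Pax7KR. Its difference was -0.20 on the log2 scale (SE 0.07, adjusted p = 0.992 by edgeR). Ccnd1, which encodes cyclin D1, measured 82.2, 86.3 and 75.9 CPM in Pax7WT and 81, 58.2 and 61.9 CPM in Pax7KR. Its difference was -0.28 on the log2 scale (SE 0.12, adjusted p = 0.992 by edgeR). Without the filter on low reads, the adjusted p of Ccnd1 was 0.059. Tnfrsf19 averaged 26.3 TPM ± 1.80 and had a log2 fold change of 0.00 (SE 0.07).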

How the data were processed

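Paired reads were quantified by the authors with Salmon (version 1.3.0) on GENCODE transcripts of GRCm38 with genomic decoys, and deposited estimated counts per transcript, not normalized. They deposited TPM values and effective transcript lengths beside them. A table of the authors' comparison of the genotypes (DESeq2 version 1.28.1, fold changes and p-values) was not used. The estimated counts were summed per gene and rounded. Of 140992 transcripts, 139791 matched an earlier GENCODE release of the same build, from which gene names and coordinates come, and the unmatched ones held 0.592% to 0.634% of reads. The filter asked for at least 5 reads in at least 2 libraries. The test was that of edgeR (version 4.0.16) with TMM scaling, robust quasi-likelihood, genotype alone, Benjamini-Hochberg adjustment over all genes. Standard errors come from the fold change and the F statistic, and intervals from the degrees of freedom of the fit. TPM were summed per gene. Alternatives used DESeq2 (version 1.42.0), in R (version 4.3.3), with the remaining steps in Python (version 3.11.15) and scipy (version 1.17.1). The fits were tested on simulated data.

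The members and lists were chosen with earlier results of these data known. Named genes were the 10 members, up to 3 non-members of highest mean TPM in each list, any non-member past the cut-off, and the 3 genes most like Lrp6. Musk, Vangl1, Pygo1, Dvl3, Axin1, Dkk1, Dkk2, Dkk4, Sost, Lef1 and Csnk1g3 were named after their values were seen. Of the marker lists, immune, Schwann and glial, tenocyte, myofibre and dissociation response markers overlapped between the genotypes in summed level. The fibro-adipogenic progenitor sum alone was higher in every Pax7KR library than in every Pax7WT library. No 2 libraries were copies of each other: the lowest chi-square per gene between any of the 15 pairs was 9.73. Depth limits Rnf43 and Fzd6 most.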

Additional observations from a re-analysis of the deposited data

How the results depend on the processing

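The 9 genes other than Lrp6 had 0 calls under every alternative run, and the log2 fold change of Lrp6 stayed between 0.33 and 0.39. Of 125 single-gene alternatives for these 9 genes, 114 kept their direction and side of the cut-off and 11 changed direction, all 11 without passing it. With transcript length as an offset, Fzd6 and Axin2 turned to -0.34 and -0.33, in edgeR and in DESeq2 alike. Lrp5 turned to 0.03 without Pax7KR replicate 1, Znrf3 to 0.05 without Pax7WT replicate 1, and Lgr4 to 0.02 without Pax7WT replicate 3 and to 0.0009 without Pax7KR replicate 1. Without Pax7KR replicate 2, Lrp5 was -0.11, and without Pax7WT replicate 1, Axin2 was 0.24. Axin2 turned to -0.09, -0.07 and -0.01 without Pax7WT replicate 2, Pax7WT replicate 3 and Pax7KR replicate 2. The cause was not tested. Over all genes, calls rose from 0 to 157 without the filter on low reads, to 30 with DESeq2, to 45 with DESeq2 and length offset, and to between 1 and 32 when a library was left out, with 32 without Pax7KR replicate 3. In the pathway lists, 1 gene other than Lrp6 was called by edgeR without the filter (Ccnd1, log2 fold change -0.28, adjusted p = 0.059). With DESeq2 and length offset, 1 was called (Csnk1g3, log2 fold change 0.40, adjusted p = 0.0551). In the main fit, Csnk1g3 had a log2 fold change of 0.04 (SE 0.07). Neighbouring levels in order in every library numbered 6, and 6 to 7 when a library was left out. With the replicate number as a block (replicate block), 13 genes were called over all genes and 0 of the 9. Same-numbered libraries did not deviate together, with correlations of 0.00176, 0.0447 and -0.0558, so the numbers were not read as pairs.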
